A study of Drosophila melanogaster with 30 samples.

Results

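RNA of the *Drosophila* ovarian cell line fGS/OSS was compared with RNA of germ cells sorted from fly ovaries, to describe which germline programs the line has and which it lacks. The comparison rests on 7 of the 30 RNA-seq libraries of the study, chosen by their labels: 4 of fGS/OSS and 3 of *vas*-GFP-positive ovarian cells. All 7 were made from total RNA depleted of ribosomal RNA. The study asked how the transcription factor Ovo controls genes of the piRNA pathway in ovarian germ cells, and its other RNA-seq libraries hold *vas*-GFP-negative ovarian cells, ovarian somatic cells (OSCs) and OSCs that lack *l(3)mbt* or carry an expression plasmid.

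fGS/OSS (n = 4) is a female line that the labels describe as wild type and as a mixture of cells of germline stem cell and of ovarian somatic sheet origin. It was grown at 26 °C without treatment, in medium that was in part carried over from the old culture and at low density, which the labels do not state for OSCs. The germ cells (n = 3) came from ovaries of w[*]; TI{TI}vas[AID:EGFP] flies, in which the *vas* locus itself carries EGFP. Those flies were kept at 25 °C, and their ovaries were digested for 1 h at 30 °C before sorting for GFP. As the source of the cells, culture against dissociation and sorting, the genotype and the stage all change together between the groups, they cannot be told apart here. The *vas*-GFP-negative cells (n = 3) of the same sort and wild-type OSCs (n = 4), a somatic line grown in the same base medium, are given beside the comparison as somatic references.

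In the germarium, a germline stem cell gives rise to a cystoblast, whose daughters stay joined by ring canals around a branched organelle, the fusome, and become nurse cells and 1 oocyte. *ovo* and *otu* are needed for female germ cells to survive, *nos* keeps stem cells undifferentiated, and *bam* drives the cystoblast into differentiation. Germ cells protect their genome with piRNAs, which Piwi, Aubergine and Argonaute3 use to silence transposons. Somatic follicle cells use Piwi alone, loaded at Yb bodies that germ cells do not have.

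Between 10.8 and 13.0 M reads per fGS/OSS library were counted in genes, and between 3.24 and 6.20 M per germ cell library. The reads were recovered from the deposited values and scaled together by the median of ratios over the 7 libraries, and values below are these normalized counts. Of 17807 genes, 10178 had a mean of at least 2 over the 7 libraries and were tested with limma on log2 of the normalized count plus 1. A gene is called higher or lower in the line where the log2 fold change of fGS/OSS over germ cells is beyond 1 or -1 and the adjusted p is under 0.01. By this rule 1226 genes (12.0%) were higher and 1373 (13.5%) were lower in the line, with a median log2 fold change of -0.07 over all genes tested. For 54.5% of tested genes the values of the line and of the germ cells did not overlap. Scaling by total counted reads moved the fold changes by a median of -0.16 on the log2 scale, and quantile normalization moved them by 0.12. As these are bulk samples, fewer germ cells in the line and less RNA of a gene in each cell cannot be told apart.

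The line had transcripts of *ovo* and *bam* but almost none of *nos*, *otu* or *zpg*. Of the 23 genes of germline identity and female sex, 11 were lower and 2 were higher in the line, and 10 were not called, with a median log2 fold change of -0.98. By edgeR 10 were lower and 2 were higher. The shares over all genes tested were 13.5% lower and 12.0% higher. *ovo* (FBgn0003028, chromosome X, 5048273 to 5070929, plus strand of BDGP6) had 2019, 2019.7, 1889.8 and 1926 normalized counts in fGS/OSS replicates 1 to 4 and 7221, 7332 and 6208 in germ cell replicates 1 to 3. The line therefore held 28.4% of the germ cell level, and the groups did not overlap (log2 fold change -1.81 ± 0.07 SE, adjusted p = 1.9e-07). The mean was 79.6 in *vas*-GFP-negative cells and 12.9 in wild-type OSCs. The *ovo* locus also encodes the somatic factor Shavenbaby, and counts per gene do not separate its isoforms.

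*bam* (FBgn0000158, chromosome 3R, 25243039 to 25245109, minus strand), the switch from stem cell to cyst, was higher in the line than in the sorted germ cells. It had 1553, 1651, 1617 and 1615 normalized counts in fGS/OSS and 811, 789 and 767 in germ cells, or 204% of the germ cell level (log2 fold change 1.03 ± 0.07 SE, adjusted p = 3.7e-06). The call lies at the threshold and is lost with total counted reads (log2 fold change 0.86) and with quantile normalization (0.87), while the groups did not overlap. *bgcn*, the partner of Bam in translational repression, went the other way, with a mean of 24.4 ± 3.89 (SD, n = 4) in the line and 551 ± 158 (SD, n = 3) in germ cells, or 4.43%.

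*nos* (FBgn0002962, chromosome 3R, 19157238 to 19160202, plus strand) had 2.57, 4.60, 1.32 and 4.20 normalized counts in the line and 2044, 2181 and 2556 in germ cells (log2 fold change -9.16 ± 0.37 SE, adjusted p = 2.4e-07). *otu*, which acts with *ovo* in the female germline, had 1 read in all 4 fGS/OSS libraries and 5001 reads in the 3 germ cell libraries. Per size factor that is 14869.5-fold, with an exact 95% counting interval of 2668 to 587430. *zpg*, the innexin of germ cells, had 1.28, 0, 0 and 4.20 normalized counts in the line against 2277, 2455 and 2388. All 3 of these markers were thus at or near 0 in a line that is labelled as part germline stem cell. Their means in wild-type OSCs were 0.314, 0.749 and 0.891. *nos* was higher in the line than in OSCs by the same thresholds (log2 fold change 1.94, adjusted p = 0.0056 by limma), with means of 3.17 and 0.314. The somatic gonad factor *tj*, in contrast, had a mean of 11456 ± 717 (SD, n = 4) in the line.

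Among the remaining genes of this list, *stil* and CG43689 were near 0 in the line, with means of 0.542 and 0.998 against 374 and 229.6 in germ cells. *pgc*, which holds transcription down in pole cells, was at 13.7% and *Phf7*, a histone reader that acts in the male germline, at 36.3%, and both were called lower. *pum* (47.9%) and *mei-P26* (47.4%) were called lower as well, near the threshold (log2 fold change -1.06 and -1.07). The splicing regulator *vir* was the other gene called higher, at 246%. *Sxl*, the female switch gene, was at 69.7% of the germ cell level and was not called (log2 fold change -0.51), nor were *snf*, *fl(2)d*, *nito* and *tra2*, which act in sex-specific splicing.

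*vas* (FBgn0283442, chromosome 2L, 15061656 to 15074311, plus strand) encodes the RNA helicase of nuage whose GFP was sorted on, so that its level in the germ cell group was set by the sort. It had 373, 351, 372 and 319.8 normalized counts in the line and 6495, 5798 and 5428 in germ cells, or 5.99%. The line nonetheless stood above wild-type OSCs, which had a mean of 8.57 (log2 fold change of fGS/OSS over OSCs 5.30, adjusted p = 5.4e-10 by limma within the table of cell lines).

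**Figure D1:**
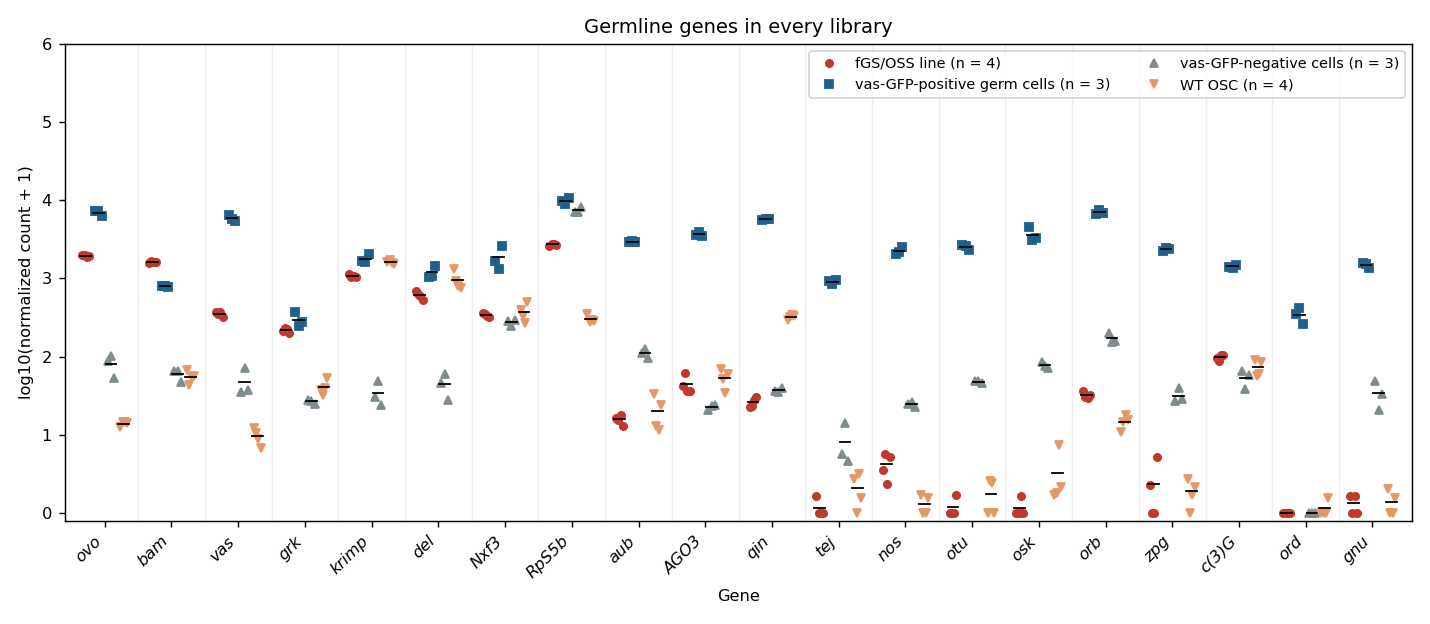
Normalized counts of 20 germline genes in every library, on a log10 axis after adding 1; each symbol is 1 library and each black bar a group mean. In fGS/OSS (circles) *ovo*, *bam*, *grk*, *krimp* and *del* lie near or above 200 counts, while *tej*, *otu*, *osk*, *ord* and *gnu* lie at or near 0 and the germ cells (squares) are above 200.

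Of the 13 genes of the germline piRNA pathway, 11 were lower in the line and none was higher. Over all genes tested, 13.5% were lower and 12.0% were higher. The median log2 fold change of the 13 was -5.97 beside -0.07 over all genes. The paper lists the same 13 as strongly germline-specific in the sorted cells, which include these germ cell libraries. The counts over this list are therefore a description. In all 13 the 2 groups did not overlap, beside 54.5% of all genes tested. By edgeR as well 11 were lower and 0 were higher. At an unadjusted p under 0.05, 13 were lower and 0 were higher. The line held under 1% of the germ cell level of 6 of them, and from 1% to 10% of 3. The Piwi family gene *aub* had 15.4, 14.6, 17.1 and 11.9 normalized counts in the line and 2919.8, 3049 and 2915 in germ cells (log2 fold change -7.57 ± 0.19 SE, adjusted p = 3.0e-08). *AGO3*, the Piwi family partner of Aub in the ping-pong cycle, had 41.0, 60.6, 35.5 and 35.0 in the line against 3590.4, 3900.1 and 3486 (log2 fold change -6.41). These levels were not above those of wild-type OSCs, where the means were 19.4 for *aub* and 52.9 for *AGO3*.

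The Tudor-domain genes of nuage differed among themselves. *tej* had 1 read in the line and 1748 in germ cells, a 5197-fold difference per size factor with an exact 95% counting interval of 932 to 205400. *qin* had 21.8, 22.3, 27.0 and 29.4 normalized counts in the line and 5585, 5824 and 5757 in germ cells. In wild-type OSCs its mean was 320.4, so that the line stood below the somatic line as well (log2 fold change -3.65, adjusted p = 5.2e-10 by limma). *BoYb* was of the same kind, with a mean of 4.53 in the line, 329.5 in germ cells and 250.3 in OSCs. *krimp*, by contrast, had 1140.4, 1051, 1061 and 1034 in the line and 1657, 1599 and 2084 in germ cells, or 60.2%, and was not called (log2 fold change -0.72). Its mean in wild-type OSCs was 1608, so that the line was not above the somatic line here either.

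The genes that let germ cells transcribe and export precursors from dual-strand piRNA clusters were divided too. *rhi*, the HP1 relative that marks these clusters, had 3.21, 0.767, 4.61 and 4.90 normalized counts in the line and 423, 405 and 191 in germ cells. *cuff* and *del*, which encode the partners of Rhino, were at 27.1% and 51.0%. *del* had 693, 625, 600.3 and 529 in the line against 1057, 1086 and 1453, and at a log2 fold change of -0.96 it fell just short of a call. Wild-type OSCs had a mean of 942 for *del*, above that of the line (612). The export factor *Nxf3* was at 18.3%, with 366, 349.9, 333 and 322 in the line, close to the mean of 371 in OSCs. *moon*, the transcription initiation factor of the clusters, and *boot*, listed as CG13741, were at 0.849% and 0.263%. Of the 13 genes, only *vas* was higher in the line than in wild-type OSCs by the same thresholds.

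The other piRNA genes were mostly at similar levels. Among 12 further nuage and germline piRNA genes, 11 lay between 61.6% and 137% of the germ cell level. These 11 were not called and include *tud*, *spn-E*, *mael*, *vret* and *shu*. By the same thresholds, 4 of the 12 were higher in *vas*-GFP-positive than in *vas*-GFP-negative cells, and 0 were higher in the line than in wild-type OSCs. The exception was CG2678, at 15.3% (log2 fold change -2.70). Of the 20 genes of piRNA biogenesis and nuclear silencing, 3 were higher, 3 were lower and 14 were not called, with a median of -0.02. Over all genes tested, 12.0% were higher and 13.5% were lower. *piwi* had 10313, 9845, 9932 and 9842 normalized counts in the line and 8314, 7875 and 7763 in germ cells (125%, log2 fold change 0.32, not called).

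The 3 genes that were higher were *fs(1)Yb*, *armi* and *nxf2*. *fs(1)Yb*, whose protein builds the Yb body of somatic cells, had 1925, 1844, 1922 and 1831 in the line and 268, 424 and 366 in germ cells (log2 fold change 2.44 ± 0.15 SE, adjusted p = 2.2e-06). *armi*, a helicase of the Yb body and of mitochondria, had 12880.2, 12756, 13126 and 12468 against 3391, 3143 and 3599 (1.92 ± 0.05 SE). *nxf2*, which acts in silencing of nascent transcripts, was at 425%. Their means in *vas*-GFP-negative cells were 840.3, 5944 and 1404, and in wild-type OSCs they were 2244, 17355 and 982. Between the sorted groups *fs(1)Yb* and *nxf2* were called lower in the germ cells (log2 fold change -1.26 and -1.89), and *armi* did not reach the fold threshold (-0.80). The 3 that were lower were *mino* (35.5%), *wde* (35.8%) and *Gasz* (49.0%, on the threshold of the fold change).

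Genes that localize mRNA in the oocyte and control its translation were present or absent as single genes rather than as a group. Of 21 genes, 20 were tested, 8 were lower, none was higher and 12 were not called, with a median of -0.81. By edgeR 7 were lower and 0 were higher, and at an unadjusted p under 0.05, 15 were lower and 2 were higher. Among all genes tested, 13.5% were called lower and 12.0% higher. *cup* is listed at 0 in all libraries and was not tested. *osk* (FBgn0003015, chromosome 3R, 8935126 to 8938395, plus strand), which founds the germ plasm, had 1 read in the line and 7104 in germ cells. *orb*, which activates translation in the oocyte, had 35.3, 29.2, 29.0 and 31.5 normalized counts in the line and 6597, 7510.2 and 6835 in germ cells (log2 fold change -7.76 ± 0.13 SE, adjusted p = 5.9e-09). *bru1*, the repressor of *osk*, had 3.21, 4.60, 3.29 and 4.90 against 12509, 13009 and 13114. Wild-type OSCs had a mean of 1152 for *bru1*, far above the line (log2 fold change -7.96, adjusted p = 6.3e-12 by limma).

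*bcd*, the anterior determinant, was at 0.188%, and *swa* and *exu*, needed to place its RNA, were at 0.0644% and 1.91%. *me31B* and *egl* were lower by less, at 41.9% and 48.7%, and *egl* lay near the threshold (log2 fold change -1.04). The genes with a like level in both groups included *stau* (101%), *Fmr1* (102%), *sqd* (97.7%) and *enc* (82.6%), all with means above 1600 in both. Their means in wild-type OSCs were 1886, 2587, 6878 and 2769, so these levels are not particular to germ cells. By the same thresholds, 2 of the 20 genes tested were higher in the line than in OSCs. *grk* (FBgn0001137, chromosome 2L, 8431086 to 8433598, minus strand), the TGF-alpha-like signal from the oocyte to follicle cells, stood apart from *osk* and *orb*. It had 211, 233, 224 and 199 normalized counts in the line and 367, 245 and 276 in germ cells. The groups did not overlap, but *grk* was not called (log2 fold change -0.43 ± 0.18 SE, adjusted p = 0.074 by limma). Its means were 39.4 in wild-type OSCs and 25.8 in *vas*-GFP-negative cells.

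Of the 27 genes of meiosis and the synaptonemal complex, 12 were lower, 2 were higher and 13 were not called, with a median of -0.70. The shares over all genes tested were 13.5% lower and 12.0% higher. *ord*, needed for sister chromatid cohesion in meiosis, had no read in any fGS/OSS library and 348, 417 and 258 normalized counts in germ cells, at least 693-fold higher in germ cells against a floor of 3 reads over the 4 libraries. *c(3)G*, the transverse filament of the complex, had 96.2, 86.7, 104 and 105 in the line against 1409, 1375 and 1501 (log2 fold change -3.86 ± 0.13 SE). *sunn*, *cona*, *c(2)M* and *nenya* were each under 1% of the germ cell level, and *mtrm*, *hdm* and *narya* were between 2.97% and 6.30%. *solo* was also under 1% but shares its first exons with *vas*, so that reads of these genes cannot be fully separated.

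Other members of the list lay on either side. *mus301*, a helicase, was called higher at 256%, and *spn-B*, of recombination repair, was called lower at 19.0%. *mei-9*, *okr*, *Blm*, *sub* and *nod* were at 166%, 63.3%, 71.9%, 93.4% and 63.7% and were not called. *mei-W68*, which makes the meiotic breaks, *mei-P22*, its partner, and *vilya*, of the same process, were at 58.6%, 67.1% and 65.1% and were not called (adjusted p = 0.24, 0.49 and 0.65).

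Maternal genes of egg activation and the early embryo were low in the line: 13 of 23 were lower, 1 was higher and 9 were not called, with a median of -1.95. Among all genes tested, 13.5% were lower and 12.0% were higher. *gnu*, a subunit of the PNG kinase, had 2 reads in the line and 2918 in germ cells. *plu*, a further subunit, had 1 and 180, while *png* itself did not differ by the test (74.5%, adjusted p = 0.91). *dhd*, the thioredoxin of the egg, had 3.21, 8.44, 11.2 and 7.70 normalized counts in the line and 6121, 6297 and 7535 in germ cells. *BigH1*, the linker histone of the early embryo, had 1 read in the line against 1098, 919 and 769 normalized counts. *wisp*, *tor* and *fs(1)N* were each under 1% and *Tl* was at 1.23%.

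*zld*, the activator of the zygotic genome, was the 1 member called higher, with 3448, 3494, 3199 and 3237 normalized counts against 1801, 1337 and 1681 (log2 fold change 1.07 ± 0.10 SE, adjusted p = 3.7e-05). The call is lost with total counted reads (0.90), with quantile normalization (0.82) and without germ cell replicate 2 (0.95), and wild-type OSCs had a like mean of 3376. The protease genes *gd* and *ea* of dorsoventral patterning had means of 215 and 343 in the line and 234 and 339 in germ cells, with overlapping groups, and under 10 in *vas*-GFP-negative cells. Wild-type OSCs had means of 169 and 209.9, and the differences of the line from OSCs were below the fold threshold (log2 fold change 0.35 and 0.71).

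Of 11 germline ribosomal protein paralogs, 9 were tested and 5 were lower, with none higher and a median of -1.85 (0 higher by edgeR or at an unadjusted p under 0.05). Over all genes tested, 13.5% were lower and 12.0% were higher. *RpS5b*, the paralog most abundant in the sorted germ cells, had 2637, 2793, 2746 and 2706 normalized counts in the line and 9913, 9057 and 10618 in germ cells, or 27.6% (log2 fold change -1.85 ± 0.06 SE, adjusted p = 8.7e-08). That was still above wild-type OSCs, which had a mean of 300.3 (log2 fold change of fGS/OSS over OSCs 3.18, adjusted p = 3.6e-11 by limma). *vas*-GFP-negative cells had a mean of 7458. *RpS19b* was at 1.28%, with a mean of 8.67 in the line, 679 in germ cells and 177 in OSCs. Of the 9 tested, 2 (*RpS19b* and *RpS10a*) were higher in *vas*-GFP-positive than in *vas*-GFP-negative cells by the same thresholds. *RpL24-like* and *RpL34a*, both called lower in the line, had means of 1462 and 1422 in germ cells. Their means in *vas*-GFP-negative cells were 1950 and 2188. The 5 lower paralogs are therefore not all germline-enriched genes.

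Among the 12 germline lists, only that of fusome and ring canal genes had more members higher than lower in the line. Of 13 genes, 5 were higher (*alpha-Spec*, *beta-Spec*, *scra*, *tsr* and *Btk29A*), 1 was lower (*Src64B*, 32.0%) and 7 were not called, with a median of 0.71. Beside this list and the innexins below, 12.0% of all genes tested were higher and 13.5% were lower. By the same thresholds, 3 of the 13 were higher in *vas*-GFP-positive than in *vas*-GFP-negative cells. None of the 5 higher in the line was among them. *tsr* and *Btk29A* had means of 5990 and 3882 in the line and 5924 and 4974 in wild-type OSCs, while *scra* had 6834 and 2863. *alpha-Spec* and *beta-Spec*, whose spectrins line the fusome and also the cortex of somatic cells, were at 280.4% and 275% of the germ cell level, with means of 16425 and 12462 in wild-type OSCs. *hts*, the adducin of the fusome, was at 65.6% and *kel*, the ring canal protein, at 99.5%, and neither was called. Among 6 innexins tested of 8, *zpg* and *Inx7* were lower and *Inx3* was higher (826%, log2 fold change 3.06 ± 0.13 SE). *Inx7* loses its call in 10 of the 17 alternatives, among them each that leaves out 1 fGS/OSS library, and 2 innexins had no read in the 7 libraries.

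Of 21 genes of the cell cycle and endocycle, 5 were lower (*CycB*, *CycB3*, *CycE*, *fzr* and *Mcm5*), 1 was higher (*dup*) and 15 were not called, with a median of -0.31. The shares over all genes tested were 13.5% lower and 12.0% higher. *CycB* and *CycE* were at 32.5% and 29.4% of the germ cell level. The calls of *Mcm5*, *fzr* and *dup* lie at the threshold. *dup* loses its own with total counted reads (log2 fold change 0.91), and without fGS/OSS replicate 2, germ cell replicate 2 or germ cell replicate 3. *fzr* loses its call with TMM size factors (-0.98) and without fGS/OSS replicate 1 or germ cell replicate 2, and *Mcm5* with TMM size factors (-0.93), with edgeR (-0.94) and without fGS/OSS replicate 1, 2 or 4 or germ cell replicate 1. Of the 11 testis meiotic arrest genes, 7 were tested, and *aly*, *tomb* and *achi* were lower, with means of 0.165, 2.00 and 47.4 in the line against 27.4, 121 and 202 in germ cells. None of this list was higher in the line (0 by edgeR or at an unadjusted p under 0.05).

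**Figure D2:**
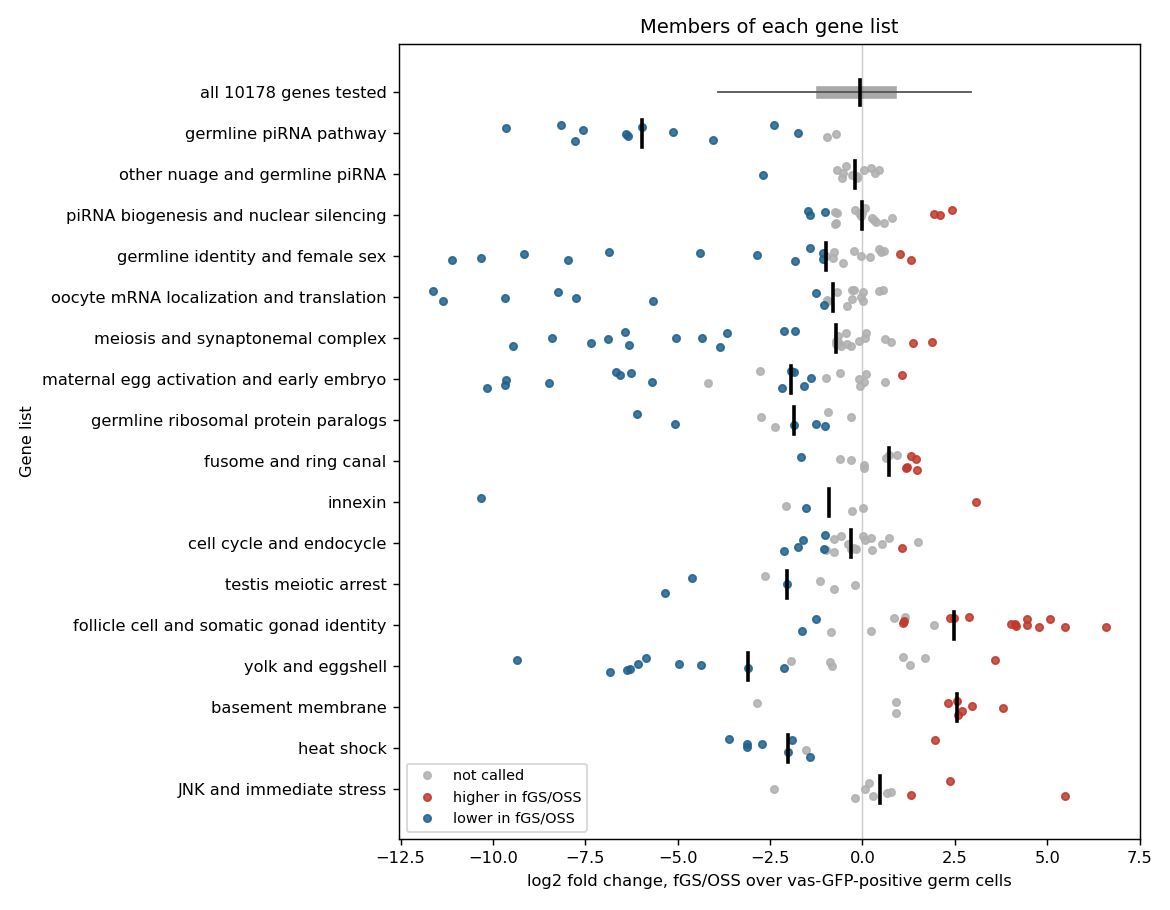
Log2 fold change of fGS/OSS over *vas*-GFP-positive germ cells for each tested member of 17 gene lists (points, coloured by call) with the list median (black bar). The top line gives all 10178 genes tested as the 5th to 95th percentile (line), the quartiles (box) and the median. The germline piRNA pathway has a median of -5.97, and the follicle cell genes have one of 2.47.

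Germline genes were also taken without a chosen list. By limma within the table of sorted cells, 738 of 10481 genes (7.04%) were higher in *vas*-GFP-positive than in *vas*-GFP-negative cells, and all 738 were also tested in the line. That choice uses the same 3 germ cell libraries, and so the counts here are a description. Of these germline-enriched genes, 481 (65.2%) were lower and 32 (4.34%) were higher in the line, beside 13.5% and 12.0% of all genes tested. Their median log2 fold change was -1.94. The line held under 1% of the germ cell level of 161 of them, from 1% to 10% of 157, from 10% to 50% of 174, from 50% to 200% of 214 and over 200% of 32. In the other direction, 837 genes (7.99%) were higher in *vas*-GFP-negative cells. Of the 736 of them tested here, 337 (45.8%) were higher and 92 (12.5%) were lower in the line, with a median of 1.03.

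**Figure D3:**
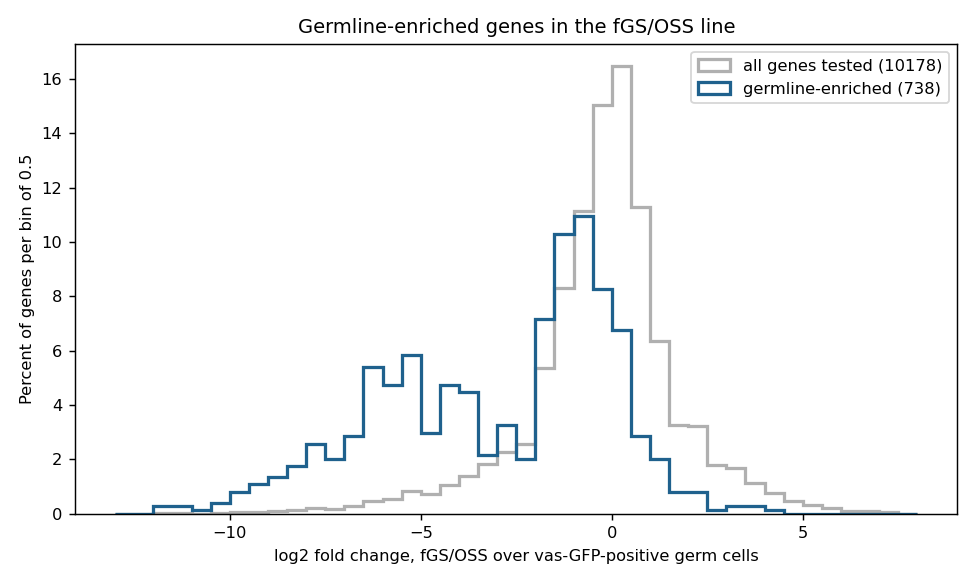
Distribution of the log2 fold change of fGS/OSS over *vas*-GFP-positive germ cells for 738 germline-enriched genes (blue) and all 10178 genes tested (grey), as percent of each set per bin of 0.5. The germline-enriched genes spread over a low range below -3 and a second one around -1 to 0, with a median of -1.94.

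The germline-enriched genes were also set against the somatic line. By limma within the table of cell lines, 998 of 9533 genes (10.5%) were higher in fGS/OSS than in wild-type OSCs. Among them were 91 of the 738 germline-enriched genes (12.3%), near the share over all genes of the main comparison (987 of 10178, 9.70%). In these last 2 shares, genes not tested against OSCs count as not higher. The set of 91 holds *ovo*, *bam*, *vas*, *grk*, *gcl*, *nos*, *orb*, *dhd* and *mtrm*, of which *nos*, *orb*, *dhd* and *mtrm* were still under 3% of the germ cell level. Of the 91, 45 were lower in the line than in germ cells, 13 were higher and 33 were not called. This comparison shares the fGS/OSS libraries with the main one.

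The 10 of these genes with the highest log2 fold change, among those with a mean of at least 100 in germ cells, were *w*, CG30484, CG14964, *nAChRalpha4*, *GstE6*, CG43658, *Idgf6*, *SKIP*, *Fhos* and *Sting*. *w*, a transporter gene for eye pigment, had 2156, 2155, 2133 and 2174 normalized counts in the line and 129.7, 154 and 69.1 in germ cells, but the flies carry a *w* mutant allele. *Idgf6*, a chitinase-like growth factor, had 3170.3, 3221, 3388 and 3127 against 1114, 1094 and 836 (log2 fold change 1.68 ± 0.10 SE, adjusted p = 2.8e-06). *Sting*, of innate immunity, had 1229, 1183, 1131 and 1294 against 467, 500.3 and 469.8. None of these 10 is a member of the germline lists above.

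Somatic gonad genes were abundant in the line. Of 23 follicle cell and somatic gonad genes, 21 were tested, 14 were higher, 2 were lower and 5 were not called, with a median of 2.47. The shares over all genes tested were 12.0% higher and 13.5% lower. *tj*, the Maf factor of somatic gonad cells, had 12120.1, 11993, 11073 and 10639 normalized counts in the line and 529, 908 and 569 in germ cells (log2 fold change 4.14 ± 0.17 SE, adjusted p = 2.5e-07). *ptc*, the Hedgehog receptor, had 10003, 9820.0, 9644 and 9556 against 287, 475 and 642 (4.45 ± 0.22 SE). *Wnt4*, a signal of the anterior somatic cells of the germarium, had 5138, 5274, 5109 and 5313 against 61.9, 132 and 193, and a mean of 229.6 in wild-type OSCs.

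*bab1*, *bab2*, *hh*, *en*, *wg*, *zfh1*, *eya*, *ct* and *slbo* were higher too, while *Fas3* (31.4%) and *pnt* (41.6%) were lower. The summed level of this list was 40420 to 43680 in the line, 4092 to 6151 in the germ cells, 31375 to 35044 in *vas*-GFP-negative cells and 25986 to 34844 in OSCs. The sorted germ cells thus held a measurable level of these transcripts. Its part in the results was not tested.

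Most yolk and eggshell genes of late follicle cells were, in contrast, low in the line. Of 26, 17 were tested, 10 were lower and only *dec-1* was higher (log2 fold change 3.59). *dec-1* was abundant, with means of 3402 in the line, 282 in germ cells, 2128 in *vas*-GFP-negative cells and 2558 in wild-type OSCs. *Yp1*, a yolk protein gene, had 14.8, 23.0, 19.1 and 11.2 normalized counts in the line, 1085, 1308 and 1764 in the germ cells and a mean of 51324 in *vas*-GFP-negative cells. Wild-type OSCs had the same mean as the line, 17.0. *clos*, also on this list, had a germ cell mean of 3103 against 172 in *vas*-GFP-negative cells and 4.05 in the line. Basement membrane genes were higher in 6 of 9 cases, led by *SPARC* (1398%) and *LanA* (781%). Beside both lists, 12.0% of all genes tested were higher and 13.5% were lower.

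Stress genes moved with the groups as well. Of 13 heat shock genes, 9 were tested, 7 were lower in the line and *stv* was higher, with a median of -2.03. Beside this list and the JNK list below, 13.5% of all genes tested were lower and 12.0% were higher. *Hsp68* had 881, 858, 886 and 789 normalized counts in the line and 8069.6, 7404 and 6924 in germ cells (log2 fold change -3.13 ± 0.07 SE, adjusted p = 3.0e-08). Its mean was 14927 in *vas*-GFP-negative cells, from the same digestion, and 1097 in OSCs. The summed level of the list was 6906 to 7257 in the line and 21448 to 23131 in the germ cells, and the near-identical *Hsp70* copies on it share reads. Of 10 genes of JNK signalling and immediate stress, 3 were higher in the line (*Mmp1*, *Gadd45* and *Jra*) and none was lower (0 by edgeR or at an unadjusted p under 0.05). The part of dissociation stress in the other results was not tested.

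Markers of other tissues had no common direction. Their counts stand beside 12.0% higher and 13.5% lower over all genes tested. Of 6 haemocyte genes tested, 1 was higher (*Pxn*) and 1 was lower (*crq*), while *He* and *NimC1* had no read in the 7 libraries and *Hml* had 12 reads in the line and 1 in germ cells. Of 11 muscle genes tested, 3 were higher and 3 were lower. Of 6 fat body genes tested, 2 were higher and 1 was lower, and of 8 neuronal genes tested, 4 were lower and 0 were higher (0 by edgeR, and 1 at an unadjusted p under 0.05). The mitochondrial genes are listed at 0 in all libraries.

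**Figure D4:**
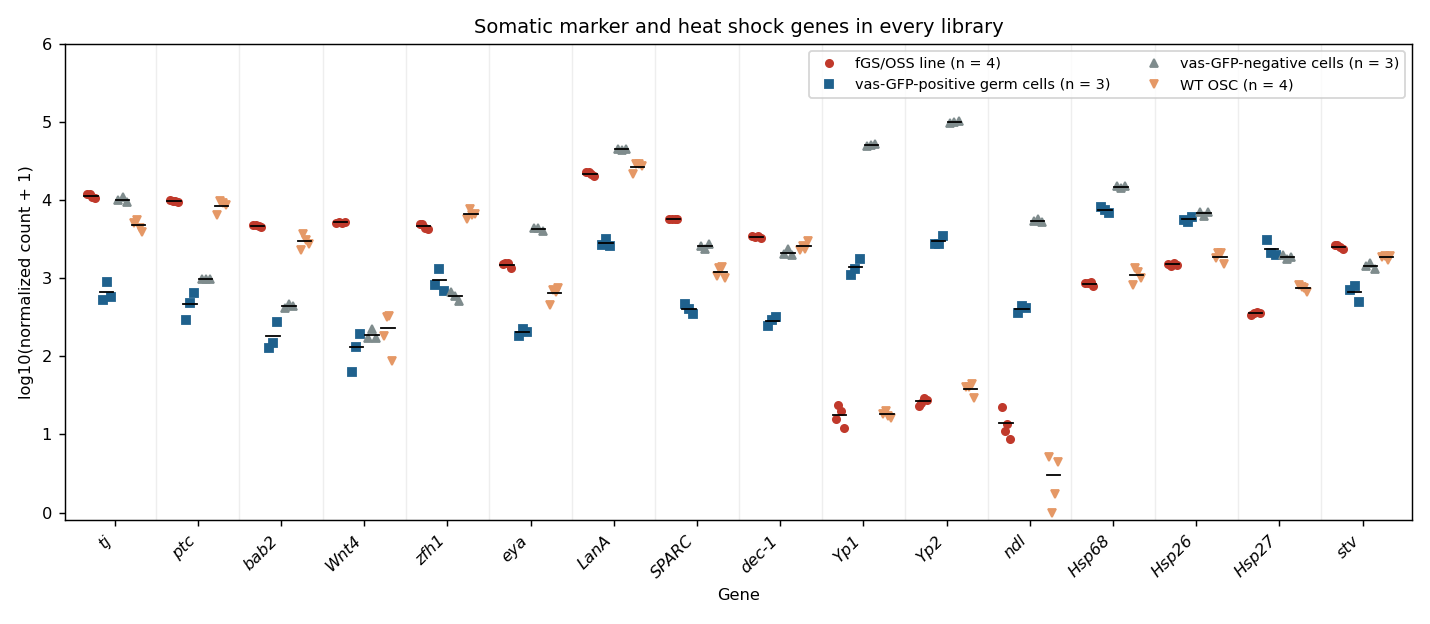
Normalized counts of 16 somatic marker and heat shock genes in every library, on a log10 axis after adding 1; each symbol is 1 library and each black bar a group mean. fGS/OSS (circles) lies above the germ cells (squares) for *tj*, *ptc*, *bab2*, *Wnt4* and *SPARC* and below them for *Yp1*, *Yp2* and *Hsp68*.

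The 10 called genes with the lowest log2 fold change, taken from those whose 2 groups did not overlap and whose higher group averaged 100 or more, were *yl*, *osk*, *bru1*, *otu*, *fs(1)M3*, *zpg*, *gnu*, *yin*, CG5958 and *swa*. *yl*, the yolk receptor of the oocyte, had 6.41, 8.44, 4.61 and 3.50 normalized counts in the line and 25071, 23380.3 and 26426 in germ cells (log2 fold change -11.91 ± 0.25 SE, adjusted p = 1.6e-08). *fs(1)M3*, a gene of the vitelline membrane and torso signalling, had a mean of 0.867 in the line and 3095 in germ cells. CG5958 was the 1 gene of the 10 that was not germline-enriched, with a mean of 1226 in *vas*-GFP-negative cells.

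At the upper end were *ATPsynepsilonL*, *mthl8*, CG6836, CG43931, CG11319, CG9691, CG11893, CG32204, *rdo* and *Wnt6*. *Wnt6*, a Wnt signal, had 1210.3, 1173, 1180.2 and 1206 normalized counts in the line and 4.42, 15.4 and 11.5 in germ cells (log2 fold change 6.85 ± 0.35 SE, adjusted p = 9.1e-07). *rdo*, which encodes a leucine-rich repeat protein, had 3685, 3518, 3547 and 3609 against 14.7, 32.1 and 48.4. In all 10 of these genes the line was also higher than wild-type OSCs, by log2 fold changes from 1.89 to 8.39, and the mean in *vas*-GFP-negative cells was at most 89.4. *mthl8*, a G protein-coupled receptor of the Methuselah family, had 1343 reads in the line and 2 in germ cells, a 226-fold difference per size factor with an exact 95% counting interval of 62.4 to 1867.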

How the data were processed

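Strand-specific libraries were made from total RNA depleted of ribosomal RNA and sequenced from both ends. Per the paper's methods and the submitters' processing notes, adapters were trimmed by cutadapt (1.18), alignment to BDGP6 was by STAR (2.7.3a), and the authors assigned reads to genes of an Ensembl annotation with featureCounts of Subread (1.5.3). The deposited signal is a normalized count: each gene's count over its library's size factor, from DESeq2 (1.30.1), with the cell lines and the sorted cells in separate tables. All values above 0 (100%) in each column used were whole multiples of 1 step, within 0.01 of a read, so whole reads were recovered. No comparison was made on values from 2 tables scaled apart: the reads of the 7 libraries were scaled together, and those of *vas*-GFP-negative cells and OSCs were put on that scale for display.

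Groups were compared with limma (3.58.1, in R 4.3.3; trend and robust on) after adding 1 to each normalized count and taking log2. Benjamini-Hochberg adjustment ran over the 10178 genes tested. As an alternative, edgeR (4.0.16, quasi-likelihood) on the recovered reads called 1164 genes higher and 1365 lower, and DESeq2 (1.42.0) was also run. The thresholds are those the study states for the sorted cells. Genes named are members of 12 germline and 11 marker lists, the 10 largest differences in each direction and the 10 germline-enriched genes described above. The members, lists and tests were chosen with earlier results of these data known, and lists were described by counts and medians, not tested. Where a group had 1 to 3 reads, the ratio per summed size factor is given with its exact 95% interval, and with 0 reads a floor of 3 was used; both cover counting error only. Replicate libraries differed by more than counting alone, with a chi-square per gene of 2.42 to 6.21 among fGS/OSS and 16.5 to 22.0 among germ cells. The labels do not say that replicates came from separate cultures or flies, so p-values measure the spread between these samples. Positions are from the Ensembl annotation of BDGP6 given here. The script was tested on simulated data. The p-values and log2 fold changes computed by the authors, the poly(A) tables and protein or sequence data were not used here. The values of 1 gene of the meiosis list are not reported here.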

Additional observations from a re-analysis of the deposited data

Results flagged for a closer look

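Values in each of the 35 genes given per library were examined for a single fGS/OSS library far from the other 3, by Dixon's ratio at 95%. Chance passes it in about 1 in 20 groups of normally distributed values, but 1 read beside 3 values of 0 always passes. The 4 found were all single reads: *otu* in replicate 4 (0.700 normalized counts), *osk* in replicate 3 (0.658), *tej* in replicate 1 (0.641) and *BigH1* in replicate 2 (0.767), with 0 in the other 3 libraries in each case. Groups of 3 libraries were not examined.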

How the results depend on the processing

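Over 17 alternatives, the count of genes higher in the line ranged from 993 to 1385 and that of genes lower from 1019 to 1729, each within 1.5 times the main count. Scaling changed small counts: with total counted reads and with quantile normalization, 1 gene of germline identity, 0 maternal genes and 0 cell cycle genes were higher, and with quantile normalization 3 fusome and ring canal genes were higher. With TMM size factors 3 cell cycle genes were lower. 1 innexin was lower with quantile normalization, with no filter on low values and with edgeR. Leaving out 1 library gave 1 to 3 meiosis genes higher, 0 to 1 maternal gene higher, 0 to 1 cell cycle gene higher and 3 to 5 lower, 1 to 2 innexins lower and 3 to 5 testis meiotic arrest genes lower (5 without germ cell replicate 2); the cause was not tested. Of 222 genes followed, none changed direction as a called gene, 69 values lost a call and 37 gained one.

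Replicate numbers did not pair the samples: deviations of same-numbered libraries from their group means correlated by -0.02 to 0.02. With the replicate number as a block, 993 genes were higher, 1019 were lower, and 1 innexin was lower. Depth limits the low end: a germ cell library held as few as 3.24 M reads, so genes that are low in germ cells were less well measured than those low in the line.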

Other observations

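Because *ovo* counts do not separate the isoform of Shavenbaby, genes that Shavenbaby is known to activate in epidermal cells were looked up after the data had been seen. Of 11 such genes, 8 were tested, and 2 (*m* and *y*) were lower in the line than in germ cells, with none higher (0 by edgeR, and 1 at an unadjusted p under 0.05 by limma). *f*, *dy*, *mwh*, *m* and *neo* each had a mean under 4 normalized counts in the line, and *dyl*, *sha* and *nyo* had a mean under 1. *tyn* and *sn* had means of 463 and 461 in the line, 362 and 606 in germ cells and 196 and 214 in wild-type OSCs.

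The apoptosis gene *hid* had a mean of 1598 normalized counts in the line and 951 in germ cells (log2 fold change 0.77, not called) but 31.1 in wild-type OSCs.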
